A study of Mus musculus with 9 samples.

Results

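The wild-type mouse embryo at embryonic day 9.5 is described here through its mature miRNAs, in 1 of 9 small RNA libraries from embryos that differ in the miR-17~92 cluster. All rows of the deposited table for mature miRNAs were taken, and rows of one miRNA accession with near-equal totals were counted once, which left 986 entries for 977 accessions. The wild-type embryo carried the whole miR-17~92 cluster. The other genotypes, with 1 library each, had miR-17 deleted, miR-18 deleted, miR-19 deleted, miR-92 deleted, miR-17 and miR-18 deleted, miR-17, miR-18 and miR-92 deleted (titled 19-only), or the whole cluster knocked out. The remaining library holds reads that no genotype could be given and is not used in any comparison. All libraries are labelled female and E9.5, and in each the heart and the tail bud were dissected away before the rest of the embryo went into Trizol. The labels therefore describe a trunk and head with many tissues in 1 library, and fewer cells of a type and less of a miRNA per cell cannot be told apart. The sources used here do not say whether a library pooled embryos. With 1 wild-type library there is no replicate, so no test was made and the range over the 7 mutant libraries is the only spread given. For the arms of miR-17~92 that range covers only the mutant libraries whose label leaves the miRNA's family in place, taking miR-20a with miR-17.

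A miRNA is cut from a hairpin precursor, whose 5p and 3p arms can each be loaded into an Argonaute protein. The bases next to its 5′ end, the seed, pair with target mRNAs, so miRNAs that share a seed form a family with overlapping targets. Many hairpins lie close together and are cut from one transcript. The miR-17~92 cluster is such a transcript, with paralogs in the miR-106b~25 and miR-106a~363 clusters, and it is known for promoting cell proliferation and survival in development. The imprinted Dlk1-Dio3 region, whose miRNAs are expressed from the maternal chromosome, holds one of the largest groups of miRNA hairpins of the mouse genome. miR-10a and miR-10b lie in Hox clusters, the gene clusters that pattern the body axis.

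The mature sequences that carry most reads of the wild-type library are shown first, from RefSeq for GRCm38.p6, read 5′ to 3′ and with the seed, bases 2 to 8, in capitals. The first 4 share the seed of the miR-92 family, the most abundant of the library, and come from hairpins on 4 chromosomes.
miR-92a-3p: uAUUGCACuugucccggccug
miR-25-3p: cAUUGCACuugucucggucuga
miR-92b-3p: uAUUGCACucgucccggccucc
miR-363-3p: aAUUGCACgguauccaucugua
The next 4 share the seed of the miR-17 family and lie in the miR-17~92 and miR-106b~25 clusters.
miR-93-5p: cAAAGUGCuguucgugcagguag
miR-20a-5p: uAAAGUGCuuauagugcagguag
miR-17-5p: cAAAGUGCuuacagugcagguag
miR-106b-5p: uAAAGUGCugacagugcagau
The remaining families of miR-17~92 have their own seeds, that of miR-19 and that of miR-18.
miR-19b-3p: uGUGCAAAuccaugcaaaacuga
miR-19a-3p: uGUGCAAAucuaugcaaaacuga
miR-18a-5p: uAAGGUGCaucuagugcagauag
The miR-10 family stood next to the miR-17 family in read number.
miR-10b-5p: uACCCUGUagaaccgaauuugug
miR-10a-5p: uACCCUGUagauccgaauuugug
The other abundant miRNAs shown are 2 of the Dlk1-Dio3 region and 2 that lie within protein-coding genes, miR-21-5p being miR-21a-5p in RefSeq.
miR-127-3p: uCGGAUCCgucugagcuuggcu
miR-541-5p: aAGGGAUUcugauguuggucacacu
miR-21-5p: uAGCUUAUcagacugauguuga
miR-30e-5p: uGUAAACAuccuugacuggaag
Both arms of miR-335 are given because their balance in wild type lay outside that of the mutants.
miR-335-3p: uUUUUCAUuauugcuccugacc
miR-335-5p: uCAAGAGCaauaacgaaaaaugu

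The wild-type library held 7070844 reads of mature miRNAs, against 6564471 to 18481380 in the mutant libraries. Levels are given as RPM, reads after each library is scaled to 1000000 miRNA reads, and 1 wild-type read was worth 0.141 RPM. All 12 arms of miR-17~92 were detected in wild type, together at 269609 RPM. Detection alone does not set wild type apart, since miR-18a-5p still had 3.90 RPM in the library with miR-18 deleted. In level, miR-20a-5p, which no other locus shares, had 28056 RPM in wild type and 22.1 RPM in the whole-cluster knockout. Among the tissue lists, which differ in number of members, that of heart muscle had the lowest sum. It leaves out miR-1a-3p and miR-133a-3p, which are counted with muscle. The heart was dissected from every library, so a link between that sum and the dissection was not tested. The list of heart muscle miRNAs, miR-208a-3p, miR-208b-3p and miR-499-5p, summed to 37.2 RPM in wild type and to between 54.4 and 263 RPM in the mutant libraries, and it stayed below all of them when reads of miR-17~92 were left out of the totals. All 3 of these markers were still detected in wild type, at 5.66 RPM for miR-208a-3p, 22.2 RPM for miR-208b-3p and 9.33 RPM for miR-499-5p. The low sum did not hold for every member. miR-208b-3p, the most abundant of them in wild type, lay within the range of the mutants, whose median was 19.3 RPM. Below all mutants were miR-208a-3p (25.7 to 186 RPM in the mutants) and miR-499-5p (19.4 to 56.9 RPM).

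A small number of miRNAs made up most of the wild-type profile. In all, 837 miRNAs had at least 1 read in wild type, and between 836 and 890 did in the mutant libraries. At least 10 reads were held by 745 miRNAs in wild type and by 751 to 821 in the mutants, and at least 50 reads by 566 in wild type and by 592 to 668 in the mutants, so that wild type was below every mutant at both minimums. Only 1 mutant library, with 6564471 reads, was shallower than wild type. The 10 most abundant took 41.8% of the wild-type reads (exact 95% interval 41.7% to 41.8%), against 34.7% to 45.2% in the mutants. The 30 most abundant took 64.2% in wild type and between 57.8% and 67.0% in the mutants. It took 16 miRNAs to reach 50% of the wild-type reads, 114 to reach 90% and 317 to reach 99%, where the mutants needed 13 to 22, 108 to 129 and 310 to 343. Of the wild-type miRNAs, 20 stood at 10000 RPM or more and 134 at 1000 RPM or more. The shares of the 10 and the 30 most abundant and the numbers needed for 50%, 90% and 99% lay within the range of the mutants. The share of the single most abundant miRNA did not, with 18.0% in wild type and 6.32% to 14.2% in the mutants. These ranges take in every mutant library, also those labelled as lacking miR-92, whose miR-92a-3p led in wild type. In those the leading miRNA, whichever it was, had 6.32%, 7.86% or 8.04%, against 12.1% to 14.2% in the mutants that keep miR-92. Intervals here cover counting error only, since PCR copies of one molecule are counted as separate reads.

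The most abundant miRNA of wild type was miR-92a-3p, made from 2 hairpins, Mir92-1 of miR-17~92 on chromosome 14 and Mir92-2 of miR-106a~363 on chromosome X. The deposited table holds it in 2 entries with different values. The higher entry had 180175 RPM in wild type, against 121072 RPM with miR-17 deleted, 59379 RPM with miR-18 deleted, 142360 RPM with miR-19 deleted and 56839 RPM with miR-17 and miR-18 deleted. Wild type was thus the highest of the 5 libraries that keep miR-92. In the 3 libraries labelled as lacking miR-92 the higher entry lay between 638 and 928 RPM. The lower entry, eighth in wild type with 20725 RPM, was at 9930 to 15231 RPM in those 3 libraries and at 10338 to 20067 RPM in the 4 mutants that keep miR-92. The sources used here do not say which entry stands for which hairpin.

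miR-25-3p of the miR-106b~25 cluster came next, with 38429 RPM in wild type and a lowest, median and highest mutant value of 26168, 35022 and 52682 RPM. miR-10b-5p, from the Hoxd cluster, was next with 31866 RPM in wild type, against 31338, 36541 and 47667 RPM in the mutants. miR-93-5p, a neighbour of miR-25, stood at 30111 RPM in wild type, against 19350, 37529 and 80401 RPM in the mutants. Wild type lay within the mutant range for each of these 3. miR-20a-5p followed with 28056 RPM in wild type. It had 18305, 14236 and 16264 RPM in the libraries with miR-18, miR-19 or miR-92 deleted, all below wild type. miR-10a-5p, from the Hoxb cluster, had 25534 RPM in wild type and 20522, 24716 and 29832 RPM in the mutants. miR-19b-3p, also made from hairpins of 2 clusters, had 24284 RPM in wild type and 26246 to 139463 RPM in the 5 mutant libraries that keep miR-19, the widest fold range among the 10 leading entries. miR-127-3p (20336 RPM in wild type, 16493 to 31323 RPM in the mutants) and miR-541-5p (18230 RPM, 16350 to 25013 RPM), both of the Dlk1-Dio3 region, closed the first 10.

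Neighbours in this order often lay closer together than the mutant libraries did. From the second to the tenth place the wild-type levels ran between 38429 and 18230 RPM, while miR-93-5p alone spanned a 4.16-fold range over the mutants. Over the 15 miRNAs outside miR-17~92 at 10000 RPM or more in wild type, the highest mutant value was a median of 2.01 times the lowest (1.45 to 4.16 times). The order among ranks 2 to 10 is therefore that of this library. Wild type shared 6 to 9 of its 10 leading entries and 21 to 27 of its 30 with a mutant library. Among the first 10 of all 8 libraries were 4 miRNAs, miR-10a-5p, miR-10b-5p, miR-25-3p and miR-93-5p. These counts use every mutant library, so leading arms of miR-17~92 can drop out where the label names their family as deleted.

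**Figure D1:**
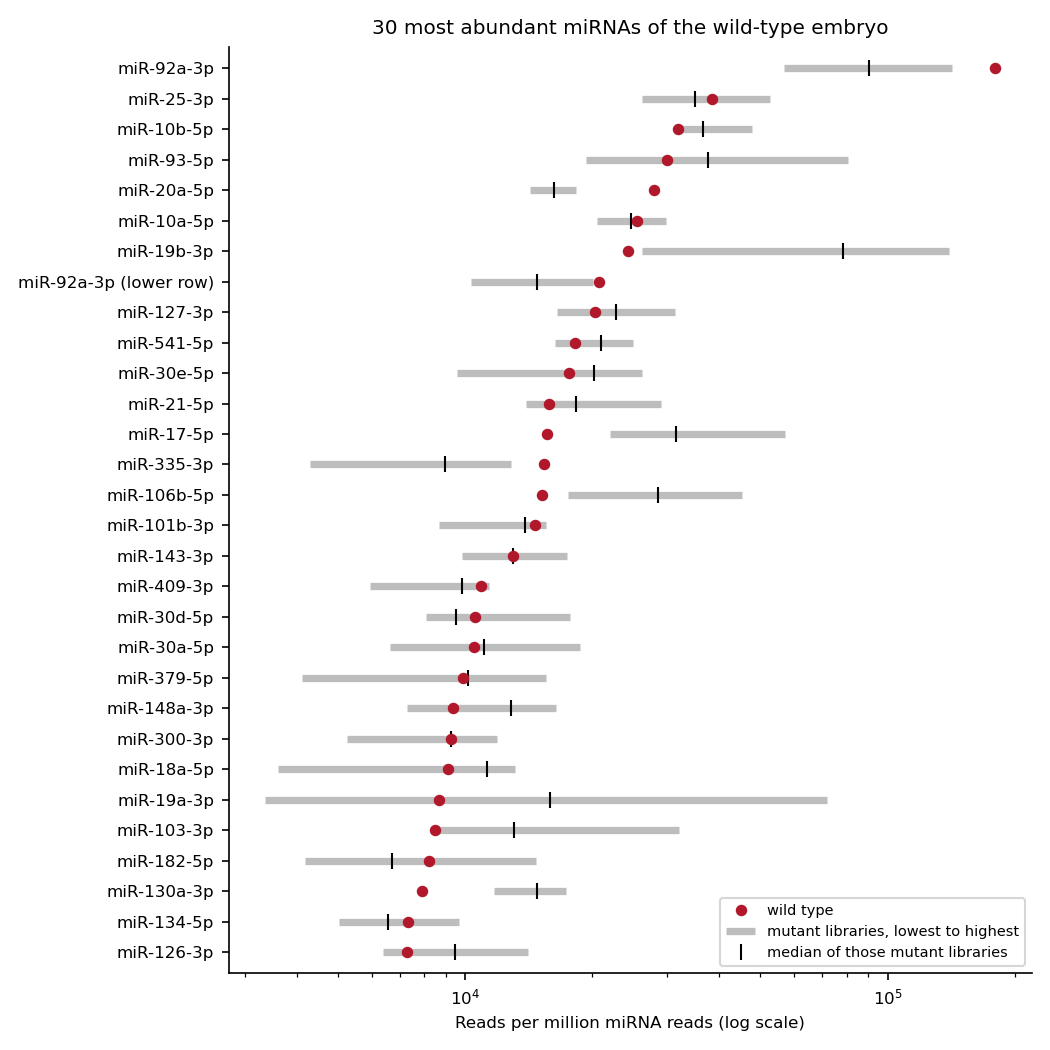
Levels of the 30 most abundant entries of the wild-type library, in RPM on a log axis. Red points are wild type, grey bars run over the mutant libraries that keep the miRNA's family and black ticks are their median. Wild type lies above the bar for both entries of miR-92a-3p (180175 and 20725 RPM), miR-20a-5p and miR-335-3p, and below it for miR-19b-3p, miR-17-5p, miR-106b-5p, miR-103-3p and miR-130a-3p.

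Ranks 11 to 30 held miRNAs with several kinds of known roles. Broadly expressed ones were miR-30e-5p within Nfyc (17564 RPM in wild type, 9565 to 26166 RPM in the mutants), miR-21-5p at the Vmp1 gene (15778 RPM, 13905 to 29116 RPM), miR-101b-3p (14598 RPM, 8647 to 15496 RPM) and miR-103-3p from the Pank genes (8497 RPM, 8622 to 32076 RPM). miR-30d-5p with 10565 RPM, miR-30a-5p with 10491 RPM and miR-148a-3p with 9365 RPM lay within their mutant ranges. From miR-17~92 came miR-17-5p, miR-18a-5p and miR-19a-3p. miR-17-5p had 15648 RPM in wild type, below the 31516, 21956 and 57183 RPM of the libraries with miR-18, miR-19 or miR-92 deleted. miR-18a-5p with 9119 RPM (3593 to 13093 RPM in 3 mutants) and miR-19a-3p with 8688 RPM (3359 to 72020 RPM in 5 mutants) lay within theirs. miR-106b-5p had 15191 RPM in wild type and 17476, 28598 and 45242 RPM as lowest, median and highest mutant values. Wild type also lay below all mutants used for miR-19b-3p and miR-103-3p on the RPM scale. For these 2 and miR-106b-5p it lay within the mutant range once reads of miR-17~92 were left out of the totals.

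Several of these ranks belong to miRNAs linked to a tissue or to imprinting. miR-143-3p, typical of smooth muscle and mesenchyme, had 12976 RPM in wild type, and its mutant median was 12972 RPM. miR-126-3p, the endothelial miRNA of the Egfl7 gene, had 7266 RPM in wild type and 6373 to 14042 RPM in the mutants. miR-182-5p of sensory organs had 8209 RPM in wild type and 4182 to 14741 RPM in the mutants. miR-130a-3p, studied in blood vessel growth, had 7892 RPM in wild type, below the 11700 to 17362 RPM of every mutant library. The Dlk1-Dio3 region added miR-409-3p (10880 RPM in wild type, 5932 to 11405 RPM in the mutants), miR-379-5p (9859 RPM, 4112 to 15497 RPM), miR-300-3p (9253 RPM, 5256 to 11918 RPM) and miR-134-5p (7319 RPM, 5036 to 9674 RPM). miR-335-3p, from the imprinted Mest gene, had 15332 RPM in wild type, above the 4281, 8960 and 12863 RPM of the mutants.

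Grouped by seed, 24.9% of the wild-type reads carried the AUUGCAC seed of the miR-92 family. In the 4 mutant libraries that keep miR-92 the family took 10.8% to 20.6%. Its 7 entries all had 100 reads or more in wild type, and the higher entry of miR-92a-3p made up 72.3% of the family. miR-92b-3p added 5387 RPM and miR-363-3p 4252 RPM in wild type. The miR-17 family, seed AAAGUGC, took 9.68% in wild type and 9.62% to 14.8% in the 3 mutants that keep miR-17. Its reads were divided among 6 members, and miR-93-5p, the first of them, held 31.1%. The miR-10 family held 5.74% (5.19% to 7.75% in the mutants), the miR-19 family 3.30% (2.96% to 20.7% in 5 mutants) and the GUAAACA seed of miR-30e-5p, miR-30a-5p, miR-30c-5p and miR-384-5p 3.08% (1.91% to 4.77%). miR-30d-5p, with 10565 RPM in wild type, and miR-30b-5p, with 382 RPM, are not in that sum, since no sequence was matched to them. The share of this family and its place among the families are therefore minimums.

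**Figure D2:**
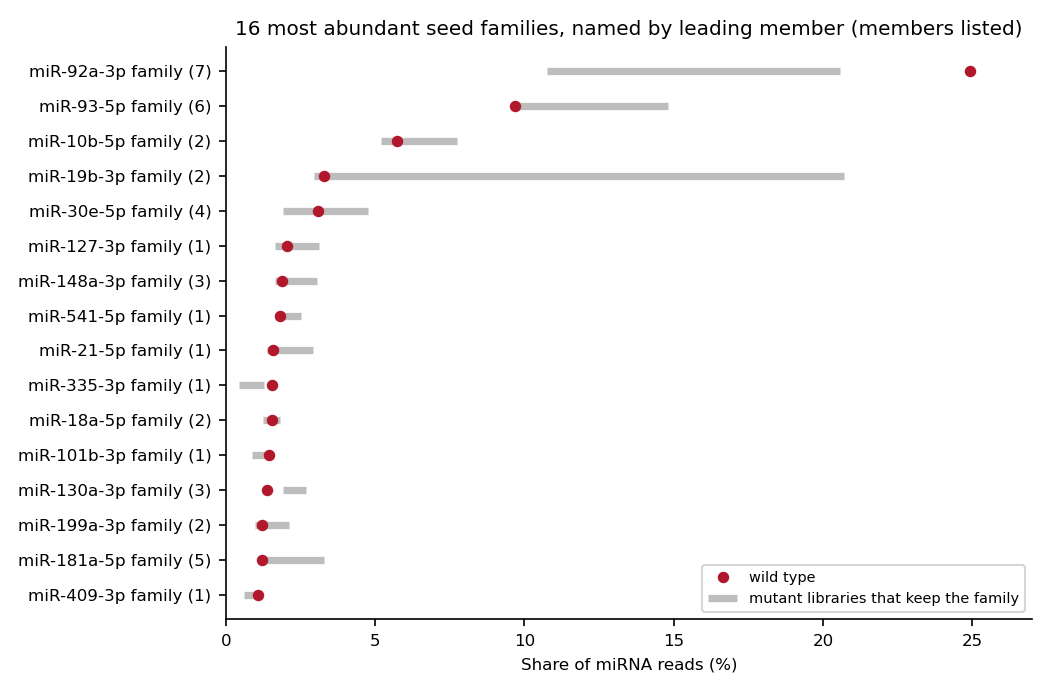
Share of all miRNA reads, in percent, for the 16 seed families with 1% or more of the wild-type reads, each named by its leading member with its number of entries in parentheses. Red points are wild type and grey bars the mutant libraries that keep the family. The miR-92a-3p family reached 24.9% in wild type, to the right of its bar, and the miR-130a-3p family 1.38%, to the left of its bar.

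Among 677 seed families of matched sequences, the first 10 took 55.6% of the wild-type reads. In 16 of the 677 families the share was 1% or more. Several of these were 1 miRNA, as for miR-127-3p with 2.03% in wild type, miR-541-5p with 1.82%, miR-21-5p with 1.58% and miR-335-3p with 1.53%. The family of miR-148a-3p, miR-148b-3p and miR-152-3p held 1.88% in wild type and 1.66% to 3.06% in the mutants, with miR-148a-3p at 49.8% of it. The family of miR-130a-3p, miR-130b-3p and miR-301a-3p held 1.38% in wild type and 1.93% to 2.70% in the mutants. The miR-199a-3p family, with 12174 RPM, sums miR-199a-3p and miR-199b-3p, which had 43049 and 43029 wild-type reads. Whether the same reads were counted under both names was not tested, and the family's place among the 16 depends on it. Wild type stayed above the mutants for the miR-92 family and miR-335-3p, and below them for the miR-130 family, when scaled to reads outside miR-17~92 or as the authors scaled the table. Sequences were matched for 810 entries, which held 93.2% of the wild-type reads, so families with unmatched members are counted without them. No sequence was matched to miR-143-3p, so it is missing from the families of 1% or more despite its 12976 RPM in wild type.

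Clusters of hairpins were read from the GENCODE annotation of GRCm38, joining neighbours on one strand within 10 kb. The miR-17~92 cluster (chr14:115043671-115044506, plus strand, in the host transcript Mir17hg) gave 12 arms with 26.96% of the wild-type reads when the higher entry of miR-92a-3p was counted with it. Arms that no other cluster shares gave 6.51%. The miR-106b~25 cluster (chr5:138165321-138165818, minus strand, inside Mcm7, which codes for a DNA replication helicase subunit) held 8.59% in wild type and 8.43% to 14.5% in the mutants. miR-25-3p made up 44.7% of it. The arms that belong to the miR-106a~363 cluster alone (chrX:52741693-52742567, minus strand) held 1.93% in wild type and 1.52% to 4.43% in the mutants, led by miR-18b-5p with 6202 RPM and miR-20b-5p with 5399 RPM. With the lower entry of miR-92a-3p, the 3 paralogous clusters took 39.6% of all wild-type reads, against 20.3% to 43.1% in the mutants, which lack different families.

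The Dlk1-Dio3 region was the other large source. Its 55 hairpins on chromosome 12, Mir770 to Mir3072, gave 15.7% of the wild-type reads, against 13.84% to 20.02% in the mutants. Of its 110 mature entries 108 were detected in wild type and 70 stood at 100 RPM or more. The distal cluster (chr12:109709060-109747960, plus strand, with Mirg) had 36 hairpins and 10.2% of the wild-type reads, more than any other cluster by arms of its own. It had no dominant member, since the first, miR-541-5p, held 17.8% of it and miR-409-3p came next. The proximal cluster (chr12:109563692-109595388) had 13 hairpins and 4.07%, and there miR-127-3p alone held 50%, followed by miR-433-3p.

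Smaller clusters lay between 0.8% and 2% of the wild-type reads. Mir30c-1 and Mir30e gave 1.92% without the shared miR-30c-5p (1.15% to 2.85% in the mutants). Mir182, Mir96 and Mir183, known from sensory hair cells and the retina, gave 1.53% (1.09% to 2.50%), led by miR-182-5p with 8209 RPM and miR-183-5p with 5957 RPM. Mir143 and Mir145a gave 1.41% (1.07% to 1.87%), led by miR-143-3p and miR-145-5p. Mir30b and Mir30d gave 1.12% (0.871% to 1.83%), Mir341, Mir1188 and Mir370 1.001% (0.967% to 1.39%), and the 7 hairpins of the X-linked group with Mir503, Mir351 and Mir322 0.828% (0.792% to 1.14%). Wild type was within the mutant range in each of these.

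Many hairpins gave nearly all of their reads from 1 arm. Among 304 hairpins with 100 wild-type reads or more, the 5p arm led in 162 and the 3p arm in 142, so that 53.3% were led by the 5p arm (50% to 53.1% in the mutants). In 151 hairpins, or 49.7%, the leading arm held 95% or more of the reads, against 47.6% to 52.8% in the mutants. Among the 102 hairpins with 10000 wild-type reads or more that share was 65.7%. In reads, 41.3% of the wild-type library came from 5p arms and 57.5% from 3p arms, within the 40.1% to 55.7% and 42.8% to 58.9% of the mutants. The 3p arm of miR-92a alone gave 200900 RPM in wild type, so the excess of 3p reads rests on that miRNA.

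Among the 20 most abundant hairpins the balance of the arms varied. miR-25 had 41 reads on its 5p arm and 271729 on its 3p arm in wild type, a 3p share of 99.98% (99.94% to 99.99% in the mutants). miR-92a gave 99.3% of its wild-type reads from the 3p arm and miR-19b 99.6%. The 5p arm held 99.2% in miR-10b, 99.4% in miR-93, 99.3% in miR-20a and 98.6% in miR-10a. Less extreme were miR-30e with 91.8% (83.4% to 94.0%), miR-17 with 89.9% (88.9% to 96.5% in 3 mutants) and miR-106b with 88.2% (78.0% to 96.4%) on the 5p arm. In miR-127 the 5p arm held 11.001% in wild type and 12.7% to 21.1% in the mutants. Within the Dlk1-Dio3 region 35 of 54 hairpins with 100 wild-type reads or more were led by the 3p arm and 19 by the 5p arm.

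**Figure D3:**
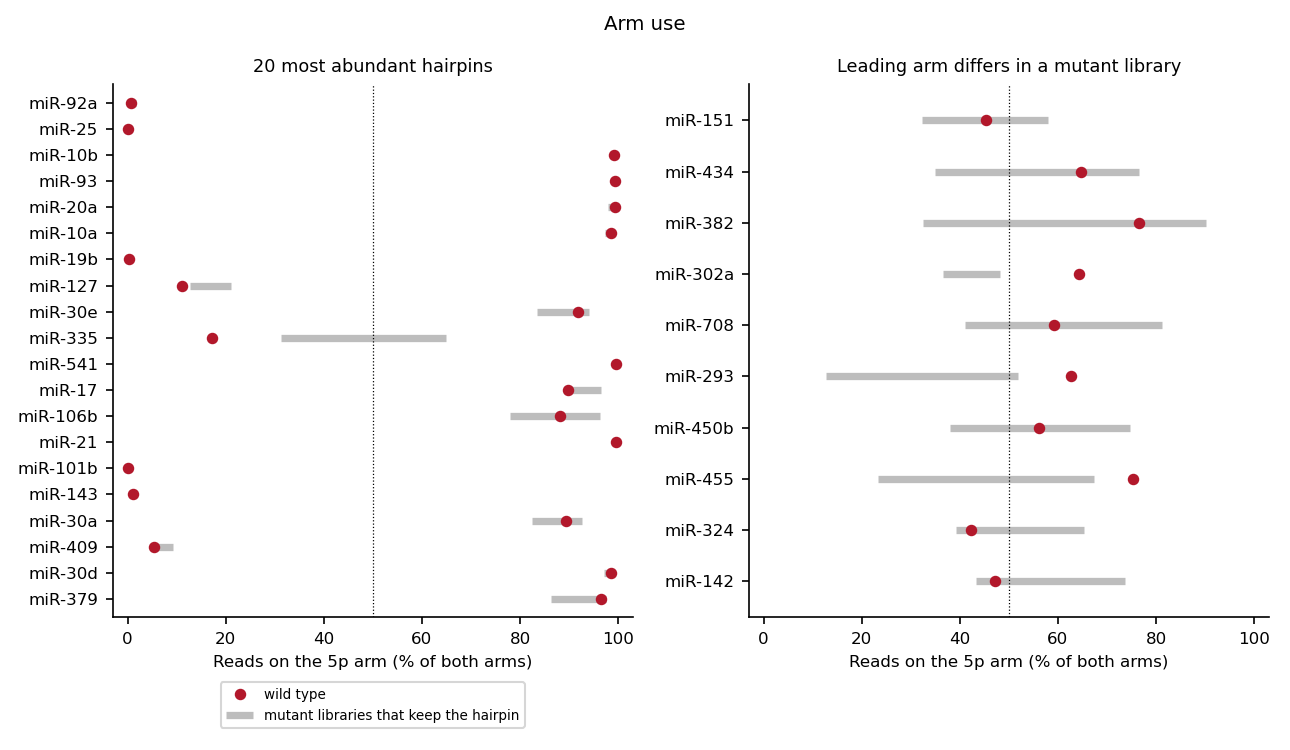
Reads on the 5p arm as a percentage of both arms, for the 20 most abundant wild-type hairpins (left) and for the 10 most abundant others whose leading arm differed between wild type and a mutant library (right). Red points are wild type, grey bars the mutant libraries that keep the hairpin and the dotted line marks equal arms. In wild type miR-335 stood at 17.1%, left of its bar, and miR-302a at 64.2%, right of its bar.

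Even use of both arms was less common, and 49 of the 304 hairpins had under 75% of their wild-type reads on 1 arm. Of those with 1000 reads or more, miR-330 was the most even, with 50.6% on the 5p arm (28.1% to 61.6% in the mutants). The erythroid miR-486 had 48.8% in wild type and a range of only 47.9% to 49.6% in the mutants. Its reads are counted a second time under miR-3107, annotated on the opposite strand of the same place. miR-362 had 51.8% (36.7% to 77.2%) and the blood cell miR-142 47.1% (43.3% to 73.8%). For 35 of the 304 hairpins the arm that led in wild type did not lead in at least 1 mutant library, and 21 of these had 1000 wild-type reads or more.

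The 5p share of wild type lay above all mutants that keep the hairpin in 30 of 293 hairpins with 100 reads in each library used (10.2%), and below all of them in 45 (15.4%). Such positions were common for every library: among the 287 of these hairpins outside miR-17~92, wild type was at an end of the 8 libraries in 72, and each mutant was in 45 to 82. Farthest outside was miR-302c, of a cluster expressed in pluripotent cells, with 72.7% on the 5p arm in wild type and 19.6%, 38.3% and 47.2% as lowest, median and highest mutant shares. Its neighbour miR-302a had 64.2% in wild type and 36.5%, 41.8% and 48.2% in the mutants. miR-335 had 17.1% in wild type and 31.3%, 38.3% and 65.0% in the mutants, so that no mutant overlapped wild type. By level, its 3p arm was at 15332 RPM in wild type and its 5p arm at 3166 RPM, against 4281 to 12863 RPM and 3837 to 7947 RPM in the mutants. miR-293, of an embryonic stem cell cluster, had 62.6% in wild type and 12.7%, 19.95% and 51.9% in the mutants, and miR-410 had 19.2%, against 4.32%, 6.43% and 11.1%.

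The leading arm also differed from its partner in the first base, a feature that the choice of members did not use. Among all 810 matched sequences 36.4% started with U, but they held 66.7% of the wild-type reads of matched sequences (54.8% to 67.4% in the mutants). Without the entries of miR-92a-3p they held 57.5% of the matched reads (54.2% to 64.7%). In 182 hairpins with a sequence for both arms and 75% or more of the wild-type reads on 1 arm, 52.7% of leading arms and 20.9% of partner arms started with U. In 76 of these hairpins only the leading arm did, and in 18 only the partner. The shares were likewise apart for hairpins led by 5p, with 58.4% against 23.6%, and for those led by 3p, with 47.3% against 18.3%.

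Lists of miRNAs typical of a tissue, cell type or body region were summed, and the Hox-cluster miRNAs were high, with 58316 RPM in wild type and 52870 to 78645 RPM in the mutants. Nearly all of it was miR-10a-5p and miR-10b-5p, while miR-196b-5p, from Hox genes of more posterior identity, had 502 RPM and miR-196a-5p 414 RPM in wild type. Mesenchymal miRNAs summed to 28301 RPM in wild type (25980 to 43521 RPM in the mutants), led by miR-143-3p and by miR-140-3p of cartilage with 6124 RPM. Sensory organ miRNAs summed to 15133 RPM (10789 to 24870 RPM). The lens and pigment epithelium miRNAs miR-204-5p, at 12.6 RPM, and miR-211-5p, at 0.566 RPM (4 reads), lay below all mutants on the RPM scale. Epithelial miRNAs summed to 10085 RPM (8434 to 14390 RPM), led by miR-141-3p with 2303 RPM and miR-200b-3p with 2125 RPM. Endothelial miR-126 summed to 9680 RPM over both arms (8553 to 17100 RPM).

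Other lists had smaller sums, and a sum within the mutant range could hold members outside it on the RPM scale. Neural miRNAs summed to 4105 RPM in wild type (3152 to 6689 RPM in the mutants). They were led by miR-9-5p of neural progenitors with 1631 RPM and the neuronal miR-124-3p with 1054 RPM. Below all mutants were miR-9-3p, with 44.7 RPM (67.3 to 171 RPM), and miR-137-3p, with 3.96 RPM (10.6 to 27.7 RPM). The other neural members lay within the range. The let-7 members, known for their increase as cells mature, summed to 2755 RPM (2744 to 4411 RPM). They were led by let-7f-5p with 765 RPM, below the 866 to 1239 RPM of the mutants, and let-7a-5p with 761 RPM. Muscle miRNAs summed to 2732 RPM (2268 to 5534 RPM), led by miR-1a-3p with 2244 RPM and miR-133a-3p with 386 RPM. Blood cell miRNAs summed to 2038 RPM (1722 to 3006 RPM), led by the erythroid miR-486-5p with 1072 RPM and by miR-142-3p with 296 RPM. miR-150-5p of lymphocytes had 9 reads. Below all mutants were miR-142-5p with 264 RPM (275 to 562 RPM), miR-451 with 236 RPM (240 to 478 RPM) and miR-144-3p with 77.2 RPM (89.1 to 252 RPM). The other blood cell members lay within the range. miRNAs of pluripotent and early cells summed to 5540 RPM (5402 to 8740 RPM), led by miR-302b-3p with 2172 RPM and miR-302d-3p with 1639 RPM. Of these 10 members, 2 lay above all mutants and 2 below them. The liver miRNA miR-122-5p had 62.7 RPM in wild type, below the 74.1 to 317 RPM of the mutants, but within their range when reads of miR-17~92 were left out of the totals.

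**Figure D4:**
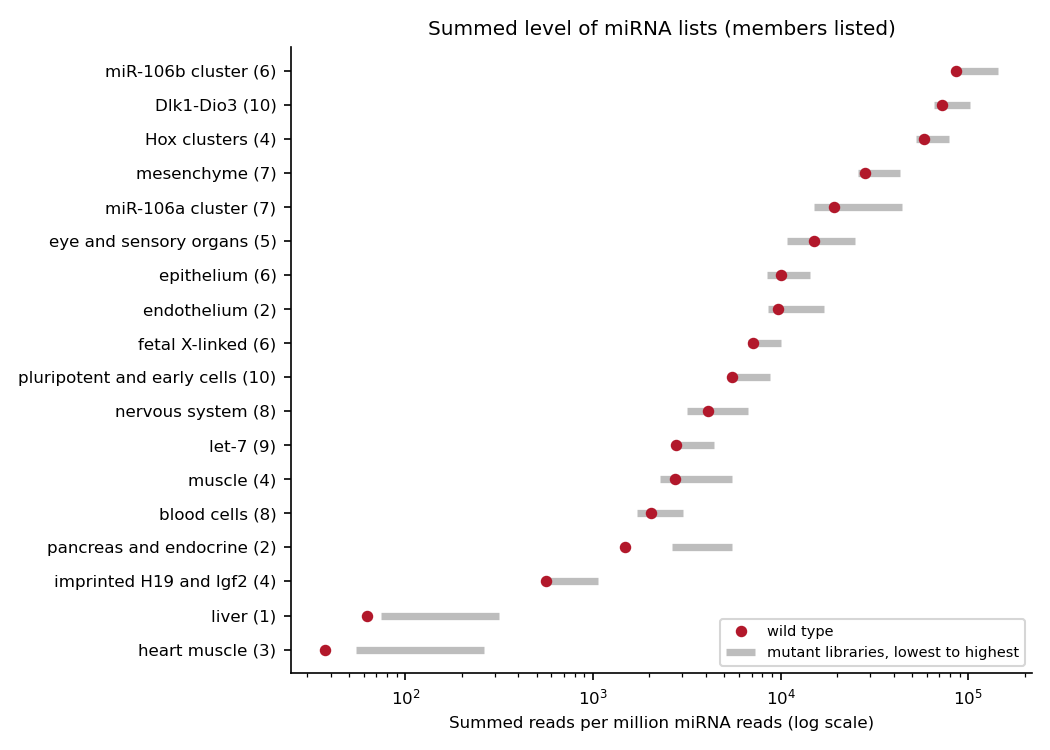
Summed level of each list of miRNAs, in RPM on a log axis, with the number of listed miRNAs in the table in parentheses. Red points are wild type and grey bars run over the 7 mutant libraries. Wild type lies left of the bar for heart muscle (37.2 RPM), liver (62.7 RPM) and pancreas and endocrine cells (1481 RPM).

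The remaining lists were of genomic groups. The X-linked group of miR-503-5p, with 2350 RPM in wild type, and miR-351-5p, with 1742 RPM, summed to 7141 RPM (6703 to 10065 RPM in the mutants). Its members went both ways on the RPM scale. Below all mutants were miR-503-5p (2740 to 5048 RPM in the mutants), miR-322-5p and miR-542-3p. Above all mutants was miR-450a-5p, and the others lay within the range. The miRNAs of the imprinted genes H19 and Igf2 summed to 561 RPM in wild type (548 to 1069 RPM), led by miR-483-3p from Igf2 with 410 RPM and miR-483-5p with 89.9 RPM. Of the placental Sfmbt2 list miR-669c-5p had 759 RPM, and miR-466a-3p had 0 reads in wild type, where 3 reads would be 0.424 RPM.

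Across miRNAs outside miR-17~92 the wild-type profile was about as close to a mutant as mutants were to each other. Over the 319 of them averaging 100 RPM or more in the 8 libraries, Pearson's r of log2 levels was 0.91 to 0.96 between wild type and a mutant and 0.91 to 0.96 between pairs of mutants. These are correlations across miRNAs that share the wild-type library or each other's, and the miRNAs are not independent replicates. The median absolute log2 difference was 0.37 to 0.56 between wild type and a mutant and 0.32 to 0.63 between mutants. Wild type was the highest of the 8 libraries for 15 of the 319 (4.7%) and the lowest for 63 (19.7%). On the scale of reads outside miR-17~92, which removes the share taken by the cluster, wild type was the highest for 37 (11.6%) and the lowest for 42 (13.2%), and with the authors' scaling for 31 (9.72%) and 44 (13.8%). On all 3 scales it was the highest for the same 15 and the lowest for 37 (11.6%). Either position fell to wild type for 78 miRNAs (24.5%), against 61 to 99 for each mutant library.

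Few miRNAs stood clear of the mutants by a large factor. Wild type was 1.5-fold or more above the highest mutant for 2 of the 319 (0.627%), miR-669c-5p of the Sfmbt2 gene and miR-450a-5p of the X-linked group, and below the lowest for 6 (1.88%). These counts turned with the scale. On reads outside miR-17~92 wild type was 1.5-fold or more above for 5 (1.57%) and below for 3 (0.94%), and with the authors' scaling above for 6 (1.88%) and below for 3 (0.94%). The 3 below on every scale were miR-302c-3p, miR-675-5p and miR-7a-5p. miR-669c-5p had 759 RPM in wild type and 178, 265 and 429 RPM as lowest, median and highest mutant values. miR-450a-5p had 1557 RPM in wild type and 150, 272 and 915 RPM in the mutants, which themselves spanned a 6.10-fold range. Next above the mutants were miR-758-3p of Dlk1-Dio3 with 1445 RPM (536 to 1012 RPM), miR-361-3p with 295 RPM (66.4 to 211 RPM) and the stem cell miR-295-3p with 300.2 RPM (57.7 to 220.1 RPM).

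Farthest below was miR-302c-3p, with 50.3 RPM in wild type and 160, 276 and 409 RPM in the mutants, while its 5p arm with 134 RPM lay within 98.95 to 263 RPM. miR-675-5p, cut from the imprinted H19 transcript, had 33.9 RPM in wild type and 76.3, 119 and 140.1 RPM in the mutants. miR-7a-5p, known from endocrine and neural cells, had 783 RPM in wild type and 1589, 2372 and 4724 RPM in the mutants. miR-185-5p had 213 RPM (369 to 634 RPM) and miR-301b-3p 603 RPM (954 to 1514 RPM). The pancreas and endocrine list, miR-7a-5p and miR-375-3p, summed to 1481 RPM in wild type and 2645 to 5475 RPM in the mutants. All 10 of these miRNAs kept their side on all 3 scales. With 1 library of each genotype, a difference of genotype and a difference between libraries cannot be told apart.

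Of the 986 entries 149 had no read in wild type, and 3 had none in any of the 8 libraries. The other 146 were low where they were detected, the highest being miR-465a-5p with 837 reads, or 67.8 RPM, in 1 mutant library. Only 2 miRNAs had reads in wild type alone, miR-194-1-3p with 9 reads and miR-883b-3p with 7.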

How the data were processed

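Small RNA was sequenced from 8 genotypes of mouse embryos and from 1 library of undetermined reads. Per the submitters' processing notes, STAR 2.2.0, SAMtools 0.1.19, featureCounts and Subread 1.4.2 were used with the mouse build mm9, and libraries followed a published small RNA protocol, per the labels' protocols. The sources used here do not say how reads that map to several places were treated. The authors deposited 1 signal value per mature miRNA and library, in 1046 rows. Divided by a step found for each library, 100% of the deposited signals gave whole reads, to within 0.001 reads. No count test was run on these reads, since each genotype has 1 library.

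Where rows of 1 accession had deposited totals within 10% of each other, the higher row was kept. 57 accessions were listed more than once and 8 stayed as several entries. RPM are reads after the reads of all 986 entries are scaled to 1000000. The higher entry of miR-92a-3p was counted with miR-17~92. 31 entries had the same values as an entry of another accession and stayed separate, with 1.16% of the wild-type reads. Sequences came from RefSeq for 773 names and 37 older names, positions and host genes from GENCODE for GRCm38. A share's interval is the exact Clopper-Pearson interval at 95%. Pearson's r used log2 of RPM plus 1.

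The miRNAs named were the 30 most abundant, both arms of the 20 most abundant hairpins, the 10 leading seed families and clusters with their leading members, the most even hairpins and the most abundant led by each arm, up to 5 miRNAs per direction farthest outside the mutant range, and the 2 most abundant and any undetected members of each list. miR-92b-3p, miR-363-3p, some further list members, the hairpins farthest outside the mutants in arm use, and miRNAs at 0 in wild type were chosen after their values were seen. The members and lists were chosen with earlier results of these data known. Scripts ran in Python 3.11.15 with pandas 2.3.3 and scipy 1.17.1 and were tested on simulated data. Alternatives were other read minimums, other handling of repeated rows, other scalings, other cluster gaps and leaving out each mutant.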

Additional observations from a re-analysis of the deposited data

Results flagged for a closer look

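The library of undetermined reads carries no genotype and stands outside all comparisons, yet it held 3023436 reads of mature miRNAs, far above the 3 reads taken as a limit for a count of 0, and 827 miRNAs were detected in it. Its 10 most abundant entries took 39.8% of its reads, and 8 of them were among the first 10 of wild type. miR-92a-3p led both, with 180175 RPM in wild type and 84694 RPM in the undetermined reads. miR-19b-3p had 24284 RPM in wild type and 71378 RPM in the undetermined reads, where it came next. No group had 4 libraries, so single libraries could not be set against their own group.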

How the results depend on the processing

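No paired analysis was possible because each genotype has 1 library and the labels give no replicate numbers. The share of the 10 most abundant miRNAs, 41.8% in wild type, was 39.4% with every deposited row kept, 42.8% with rows of an accession summed, 32.2% without the arms of miR-17~92 and 42.0% with miRNAs of identical values counted once. The leading seed family took 23.2%, in place of 24.9%, with every row kept or with rows summed. The miR-17~92 cluster took 29.03% with both entries of miR-92a-3p and 8.94% with neither, in place of 26.96%, so its share rests on that miRNA. Counted by arms that no other cluster shares, the leading cluster with neighbours within 3 kb was miR-106b~25 with 8.59%, in place of 10.2%. This is because the Dlk1-Dio3 group is split at that gap. By this count miR-17~92 goes without miR-92a-3p and miR-19b-3p. Wild type was the highest or the lowest library for 140 miRNAs with a minimum of 10 RPM and for 243 with none, in place of 78 of 319, since more miRNAs are counted. Wild type was 1.5-fold or more above all mutants for 5 miRNAs on reads outside miR-17~92 and 6 with the authors' scaling, in place of 2, and below all mutants for 3 on either, in place of 6 (scalings chosen for these counts after seeing the data). For the highest or lowest position, leaving out 1 mutant at a time gave 80 to 92. The number of miRNAs detected, the number that make up 50% of the reads and both arm-use percentages stayed within 1.5 times or within their interval under each alternative run, including hairpins of identical values counted once, which was chosen after seeing the data. At 7070844 reads, levels near 0.424 RPM rest on 3 reads, and how multiply mapped reads were treated was not tested.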
